A study of Mus musculus with 37 samples.

Results

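The RNA exosome is described here through its 10 core subunit genes, Exosc1 to Exosc10, in hippocampal astrocytes of mice with and without post-traumatic epilepsy. The members were chosen by symbol, and all 10 were found among the 21975 gene identifiers of the deposited tables. The exosome degrades and trims RNA from its 3′ end in the nucleus and in the cytoplasm, where it acts on mRNAs whose poly(A) tail has been removed. A ring of RNase PH-like subunits (Exosc4, Exosc5, Exosc6, Exosc7, Exosc8 and Exosc9) carries a cap of RNA-binding subunits (Exosc1, Exosc2 and Exosc3). The mammalian ring has no nuclease activity of its own, and Exosc10 is a nuclease that joins the complex in the nucleus.

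Astrocytes were taken from the hippocampus 4 months after controlled cortical impact (CCI), a unilateral contusion injury, or after sham surgery, with a library for each hemisphere of a mouse. PTE+ mice had CCI and repeated epileptic events on EEG, PTE- mice had CCI without them, and sham mice had the craniectomy and the recording electrodes without the impact. The contralateral hippocampus gave 20 libraries (5 PTE+, 10 PTE- and 5 sham) and the ipsilateral hippocampus 17 (4, 8 and 5), from 20 mice of which 17 had both. The labels name the strain CD31, whereas the methods name male CD1 mice. Cells were captured on beads against ACSA-2, an astrocyte surface antigen, so fewer cells and less RNA in each cell cannot be told apart. The 10 astrocyte markers examined were above 3 counts in all 37 libraries, with a summed level between 5630 and 21000 TPM, which is scaled for transcript length and library size. The summed TPM of the 8 markers of each other cell type ranged from 27.1 to 1070 for microglia, 311 to 2280 for oligodendrocytes, 62.1 to 1190 for neurons and 34.6 to 5610 for endothelial cells. Libraries held 25371887 to 59846479 counts and detected between 9020 and 15545 genes. Fewest genes were detected in the ipsilateral library of PTE- mouse a8_11 (9020), and in the contralateral hippocampus in that of PTE- mouse a9_20 (11756).

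The position of Exosc6 bears on every count given to it. In the GENCODE annotation of GRCm38, Exosc6 (ENSMUSG00000109941) is a single exon at chr8:111056339-111057664 on the plus strand, 1326 bases long. This exon lies whole within the last exon of Aars, which encodes cytosolic alanyl-tRNA synthetase, on the same strand and with the same end. The last exon of the Aars transcript that holds it covers chr8:111055019-111057664, and its 3′ UTR begins at base 111055205, upstream of Exosc6. The 1326 bases of the Exosc6 transcript were identical to bases 4425 to 5750 of this Aars transcript, its last 23.1%. To show what is shared, the first 30 bases of the Exosc6 coding sequence (GRCm38, chr8:111056371-111056400, plus strand, start codon in capitals) are given on the line below, and they occurred once in each of the Exosc6 and Aars transcripts.
Exosc6: ATGccgggagaccatcgccgcatccgcggg
In this annotation a read from any part of the Exosc6 transcript therefore also matches Aars, and its origin cannot be told from its sequence. Which Aars transcripts the study's own index held is not given in the sources used here. Of the 21933 tabled genes with a GENCODE entry, 133 (0.606%) lay entirely within same-strand exons of other tabled genes in this way.

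**Figure D1:**
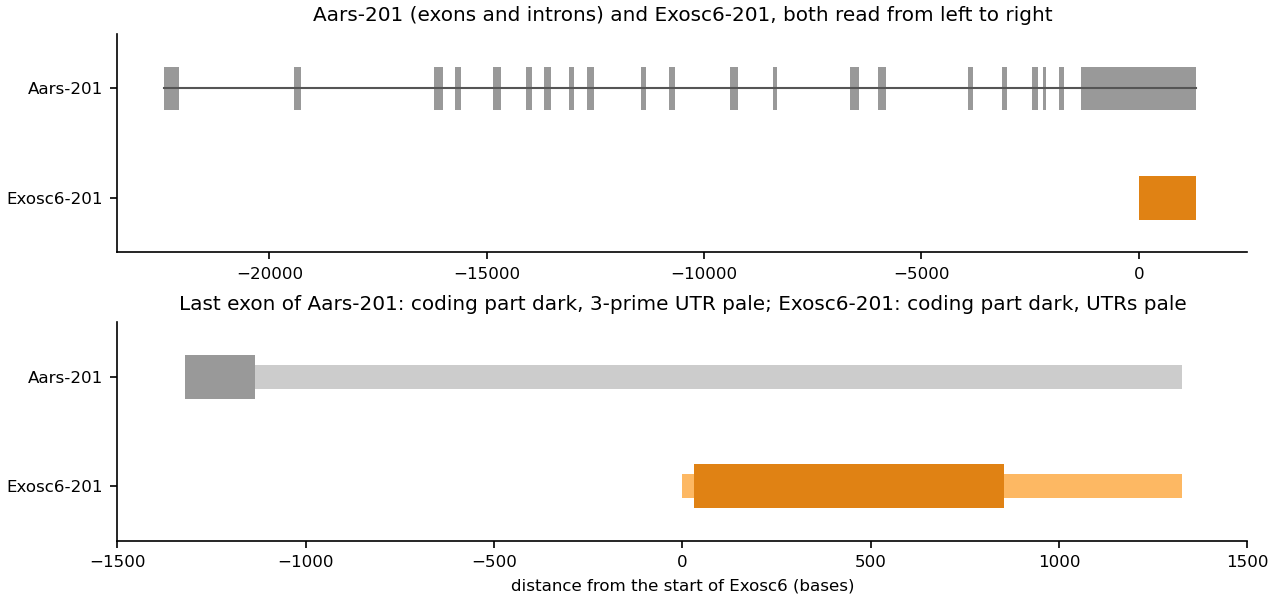
Map of the Aars and Exosc6 transcripts by distance in bases from the start of Exosc6. Upper panel, the exons of Aars (boxes) and the single exon of Exosc6, and lower panel, the last exon of Aars. The whole of Exosc6 lies in the pale 3′ UTR of Aars and ends with it.

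No other member had this arrangement. The other 9 genes had between 3 and 25 exons in their largest transcript and shared between 0 and 19.8% of their exonic bases with another gene, always on the opposite strand. The largest share was that of Exosc4 (chr15:76327397-76330677) with Oplah. Exosc9 (chr3:36552606-36565727) shared 10.8% with Ccna2, Exosc5 (chr7:25659164-25671368) 5.66% with Tmem91, Exosc3 (chr4:45316613-45342732) 4% with Dcaf10 and Exosc8 (chr3:54728678-54735393) 2.05% with Supt20. Exosc1 (chr19:41922292-41933423), Exosc2 (chr2:31670715-31681349), Exosc7 (chr9:123113215-123136129) and Exosc10 (chr4:148558429-148582401) shared none. No source used here states that the counting used strand, so reads in these opposite-strand stretches cannot be divided between the genes with certainty.

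In level, compared per transcript length as TPM, 9 subunits lay close together and Exosc6 stood apart. The median over the 20 contralateral libraries was highest for the ring subunits Exosc5 (68.3 TPM), Exosc4 (65.8 TPM) and Exosc7 (60.4 TPM). The cap subunit Exosc3 (58.0 TPM) and the nuclease Exosc10 (48.4 TPM) came next, followed by Exosc1 (46.7 TPM), Exosc9 (35 TPM), Exosc2 (30.1 TPM) and Exosc8 (26.8 TPM). Neighbours in this order overlapped widely. Between the lower and upper quartile, the libraries spanned 56.4 to 85.3 TPM for Exosc5 and 56.4 to 76.8 TPM for Exosc4, and 18.6 to 33.4 TPM for Exosc8 at the other end. The ipsilateral order was similar, from Exosc4 (median 72.2 TPM) and Exosc5 (68.1 TPM) to Exosc2 (30.5 TPM) and Exosc8 (27.0 TPM). Exosc6 had a median of 0 TPM in both hemispheres.

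Single libraries lacked single subunits. At most 3 counts, taken here as the limit of counting, were found in 3 of the 180 contralateral values of the 9 other subunits (1.67%) and in 8 of the 153 ipsilateral values (5.23%). Over all genes with median counts in the range of these subunits the shares were 3.76% and 5.48%. Contralateral Exosc8 was at 0 in PTE- mice a9_14 and a9_20 and in sham mouse a8_16. Ipsilateral Exosc10 was at 0 counts in PTE- mouse a8_11 and at 1 count in PTE- mouse a8_14. The ipsilateral libraries of a8_11 and of sham mouse a9_9 each had 3 of the 9 subunits at this limit, and in the same libraries 41.8% and 19.3% of the genes in this range were at the limit. Such gaps touched all 3 groups.

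**Figure D2:**
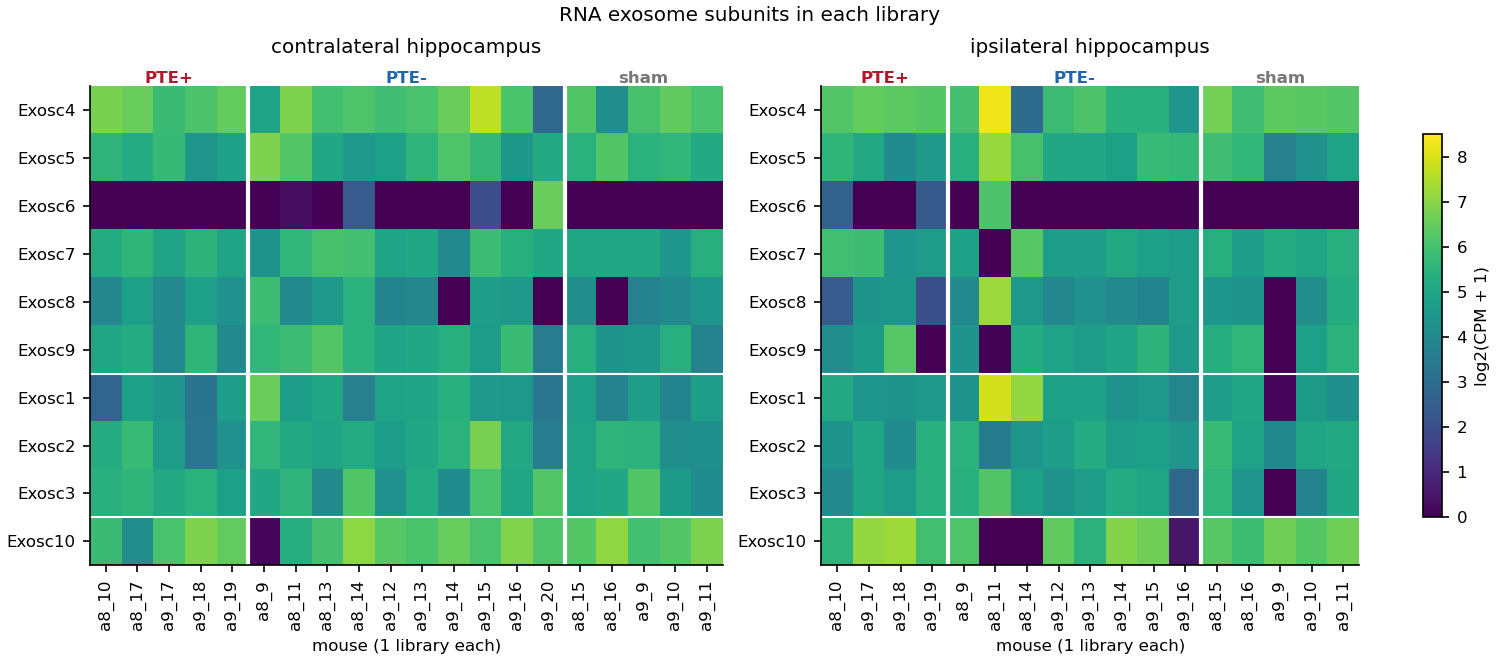
Level of each subunit as log2(CPM + 1) (colour) in each library (columns, named by mouse and ordered by group), with ring subunits on top, cap subunits in the middle and Exosc10 at the bottom. The row of Exosc6 is at 0 in 30 of 37 libraries, whereas the other rows are filled except for single libraries.

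Exosc6 was counted in 7 of the 37 libraries. Values are given as counts and as CPM (counts scaled to library size by TMM). In the contralateral hippocampus it had 2363 counts in PTE- mouse a9_20 (93.4 CPM), 217 in a8_14 (4.42 CPM), 137 in a9_15 (3.12 CPM) and 8 in a8_11 (0.244 CPM). The other 6 PTE- libraries, all 5 PTE+ libraries and all 5 sham libraries had 0 counts. In the ipsilateral hippocampus it had 2695 counts in PTE- mouse a8_11 (69.6 CPM), 311 in PTE+ mouse a8_10 (5.48 CPM) and 220 in PTE+ mouse a9_19 (4.32 CPM). The other 7 PTE- libraries, the other 2 PTE+ libraries and all 5 sham libraries had 0 counts. Thus counts were found in PTE- mice alone on the contralateral side, in PTE+ and PTE- mice on the ipsilateral side, and in no sham library, and every group of either hemisphere held libraries at 0. Among the 8 PTE- mice with both libraries, a8_11 had Exosc6 counts on both sides, a8_14 and a9_15 on the contralateral side alone, and 5 on neither.

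The 2 libraries rich in Exosc6 were the 2 poorest in Aars of their hemispheres. Aars had 749 counts in the contralateral library of a9_20 (29.6 CPM), the lowest of 20, and 254 in the ipsilateral library of a8_11 (6.56 CPM), the lowest of 17. In the 30 libraries without Exosc6 it had between 4061 and 14729 counts. Of the counts given to both genes together, Exosc6 held 75.9% in a9_20 (95% Wilson interval 74.4 to 77.4) and 91.4% in a8_11 (90.3 to 92.3). In the other 5 libraries with Exosc6 the share lay between 0.194% and 7.54%. In the 30 libraries at 0, a count of 3 would be a share of between 0.0204% and 0.0739%. These intervals and limits cover counting error only, since amplified cDNA reads without molecular identifiers are not independent molecules.

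When the counts of both genes were joined, the outlying libraries moved toward the others. The joined level was 123 CPM in the contralateral library of a9_20, the 4th lowest of 20, and 76.2 CPM in the ipsilateral library of a8_11, the 2nd lowest of 17. Joined levels of the contralateral libraries ranged from 79.6 to 187 CPM in PTE+ (median 123), 123 to 205 CPM in PTE- (median 158) and 135 to 227 CPM in sham mice (median 203). On the ipsilateral side they ranged from 57.3 to 232 CPM, 76.2 to 318 CPM and 139 to 255 CPM, so the groups overlapped in both hemispheres. In a8_11 the ratio of Aars counts to Aars TPM, which follows the length of the Aars transcripts to which reads were assigned, was 0.668 times the library's median gene, against 2.46 to 2.92 times in the 30 libraries without Exosc6. In a9_20 it was 2.83 times. The low number of genes detected in these same libraries was given above, and its part in the Exosc6 values was not tested.

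**Figure D3:**
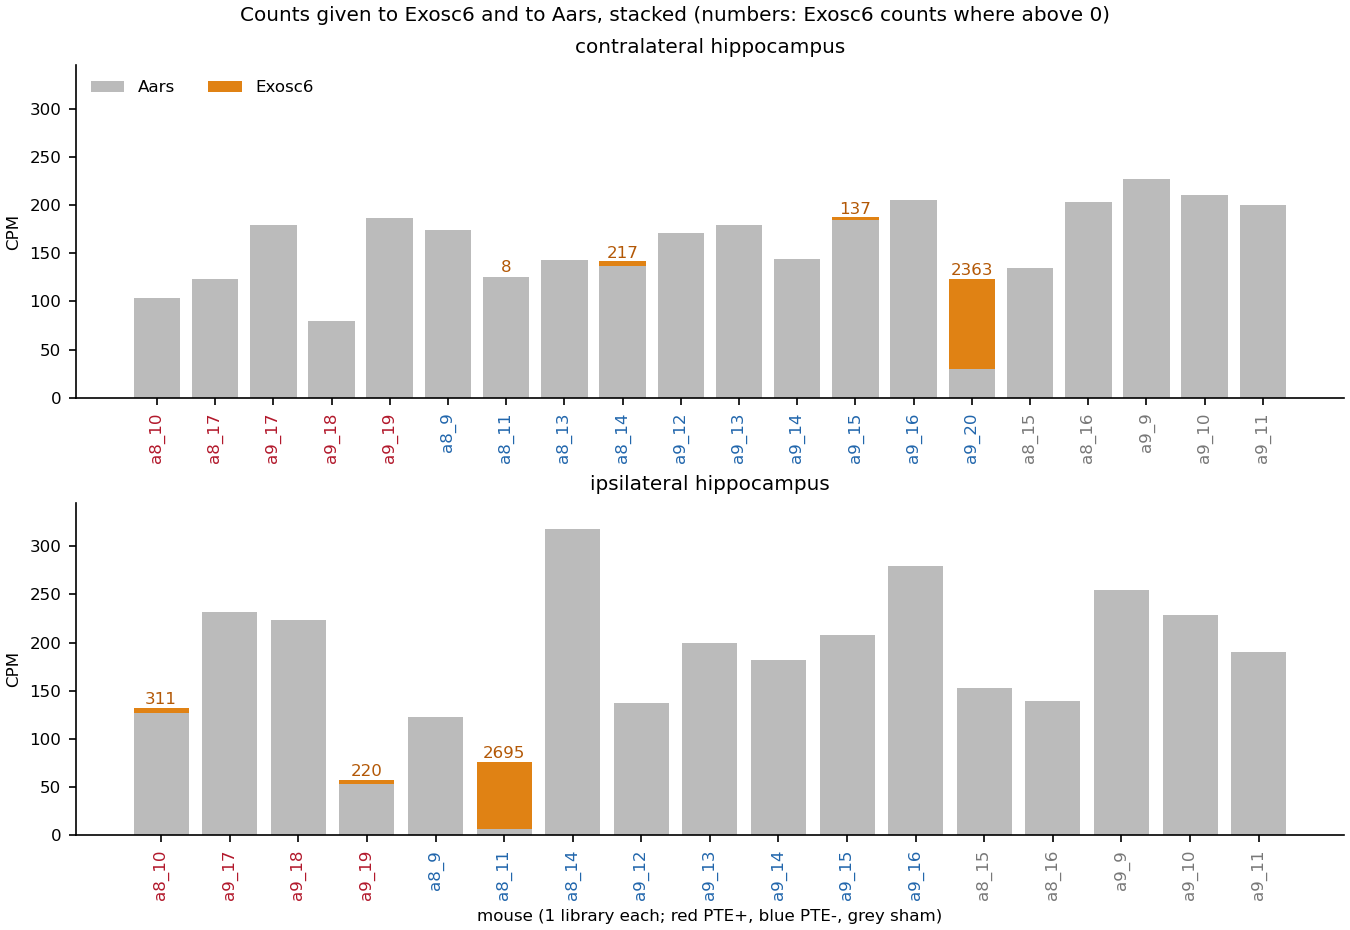
CPM of Aars (grey) and Exosc6 (orange), stacked, in each library, with the Exosc6 counts printed where above 0. The library of a9_20 (contralateral) and that of a8_11 (ipsilateral) are mostly orange, and their stacks, 123 and 76.2 CPM, are within the range of the other libraries or just above the lowest.

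The first comparison asked whether the complex differed between injured mice with and without epilepsy. In the contralateral hippocampus no subunit passed the test between PTE+ and PTE- mice in edgeR. The filter on low counts kept 9 subunits and removed Exosc6. In edgeR none of the 9 had an adjusted p under 0.05, and none had an unadjusted p under 0.05 (smallest p = 0.178), against 0.00683% and 2.21% of the 14642 genes tested. In limma voom Exosc9 had an unadjusted p of 0.0432 (log2 fold change -0.85 ± 0.40, SE, adjusted p = 0.753). In the fit, 8 subunits were lower and 1 higher in PTE+ mice, with a median log2 fold change of -0.10, beside -0.05 over all genes, of which 53.3% were lower. The standard errors of the single subunits had a median of 0.49.

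The contralateral values of the ring subunits overlapped between the groups. Exosc4 was at 108, 90.3, 54.4, 68.1 and 88.1 CPM in the 5 PTE+ mice, and in PTE- mice ranged from 6.41 to 205 CPM (median 66.5). Exosc5 was at 36.2 ± 12.4 CPM in PTE+ (SD, n = 5) and 49.3 ± 29.6 CPM in PTE- mice (n = 10). The PTE- mice held both the lowest and the highest Exosc4 value of all groups, and the 5 PTE+ mice lay between them. Exosc7 was at 37.5 ± 7.49 and 39.6 ± 16.9 CPM, Exosc8 at 20.2 ± 6.10 and 21.3 ± 17.5 CPM, and Exosc9 at 29.1 ± 13.6 and 41.4 ± 17.8 CPM in PTE+ and PTE- mice. Among the cap subunits, Exosc1, a counterpart of yeast Csl4, was at 5.78, 28.4, 21.8, 8.59 and 26.2 CPM in PTE+ mice and at 9.10 to 93.2 CPM (median 27.3) in PTE- mice. The RNA-binding subunits Exosc2 (28.4 ± 16.7 and 40.4 ± 25.5 CPM) and Exosc3 (38.1 ± 7.57 and 40.8 ± 22.6 CPM) overlapped likewise. The nuclease Exosc10 was at 67.7 ± 36.4 CPM in PTE+ and 72.4 ± 37.5 CPM in PTE- mice, where 1 library (a8_9) had 6 counts.

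For Exosc6 itself the contralateral call depended on the tool. Its mean was 0 in PTE+ and 10.1 ± 29.3 CPM in PTE- mice (SD, n = 10), and its median was 0 in both. The PTE- mean was at least 138-fold higher when PTE+ libraries are set to 3 counts each, and at least 11.8-fold higher without a9_20. These bounds take the counts as assigned to Exosc6, although its reads also match Aars. The exact two-sided permutation test on log2(CPM + 1) gave p = 0.322 (adjusted p = 1 over 18801 genes with a count), with 4 of 10 PTE- libraries above 0. All these counts already lay in PTE- libraries, so no exchange of labels gives a larger PTE- excess. With so few libraries above 0, this test could give no smaller p in that direction. Without the filter, edgeR gave an unadjusted p of 0.0120 and an adjusted p of 0.484. DESeq2, which replaces outlying counts in groups of this size before testing, called it with an adjusted p of 4.70e-07, and without a9_20 with an adjusted p of 1.68e-06. With replacement turned off, DESeq2 marked the gene as an outlier and gave no p. Exosc6 was the one member called by DESeq2 here, where 0.487% of the 17459 genes with an adjusted p were called. The joined counts of Aars and Exosc6 gave a log2 fold change of -0.25 ± 0.22 (SE) with edgeR (p = 0.267, adjusted p = 0.9998) and an adjusted p of 1 with DESeq2. Exosc6 was singled out by the study on these samples, so its difference here is not independent evidence.

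In the ipsilateral hippocampus no subunit passed the test between PTE+ and PTE- mice either, in edgeR, DESeq2 (0.673% of genes) or limma. In edgeR none of the 9 tested had an adjusted p under 0.05, against 0% of 14903 genes, and none an unadjusted p under 0.05 (smallest p = 0.157), against 1.75%. In limma voom Exosc4 had an unadjusted p of 0.0149 (log2 fold change 0.75 ± 0.28, SE, adjusted p = 1). They were split into 5 higher and 4 lower, with a median log2 fold change of 0.05, beside -0.01 over all genes. The median standard error was 1.03. Exosc4, a ring subunit, was at 73.8, 89.9, 81.0 and 75.5 CPM in the 4 PTE+ mice. The PTE- mice were at 6.97 to 69.0 CPM in 7 libraries, all below the PTE+ mice, and at 311 CPM in a8_11. How many of all genes separate these groups once a8_11 is set aside was not counted, so no result is read from it. The log2 fold change of Exosc4 was 0.08 with a standard error of 0.66 in all libraries and 0.95 ± 0.43 (SE) without a8_11 (unadjusted p = 0.0423, adjusted p = 0.9999 in edgeR). Exosc10 was at 44.8, 140, 151 and 60.1 CPM in PTE+ mice, and at 0 to 119 CPM (median 56.8) in PTE- mice, of which 3 had 22 counts or fewer.

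The other ipsilateral subunits overlapped between PTE+ and PTE- mice. Exosc5 was at 46.3, 34.0, 16.1 and 23.2 CPM in PTE+ mice and at 27.8 to 143 CPM (median 44.8) in PTE- mice. Exosc8 was at 4.38, 20.3, 21.6 and 3.24 CPM and at 13.2 to 148 CPM (median 16.8). Exosc1 was at 35.02, 21.0, 19.7 and 21.9 CPM and at 13.7 to 243 CPM (median 24.8). The highest value of all 3 subunits was in the PTE- library of a8_11. Exosc2 (27.0 ± 11.3 and 26.1 ± 9.70 CPM), Exosc3 (28.2 ± 10.4 and 32.3 ± 19.1 CPM), Exosc7 (40.7 ± 20.4 and 30.3 ± 21.3 CPM) and Exosc9 (29.5 ± 33.3 and 26.0 ± 13.1 CPM) overlapped likewise (SD, n = 4 and 8).

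The direction of ipsilateral Exosc6 turned with the tool. Its mean was 2.45 ± 2.87 CPM in PTE+ (SD, n = 4) and 8.70 ± 24.6 CPM in PTE- mice (n = 8), and the latter rests on a8_11 alone. Without the filter, edgeR gave a log2 fold change of -1.60 ± 3.11 (SE, p = 0.615, adjusted p = 1), and DESeq2 one of 9.25 ± 3.71 in the opposite direction (p = 0.0128, adjusted p = 0.868). With the replacement of outlying counts turned off, DESeq2 gave -2.13 and no p, and without a8_11 it gave 9.31. The exact two-sided permutation test gave p = 0.661 (adjusted p = 1 over 18103 genes with a count). The joined counts of Aars and Exosc6 gave a log2 fold change of -0.24 ± 0.40 (SE) with edgeR (p = 0.554, adjusted p = 1).

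**Figure D4:**
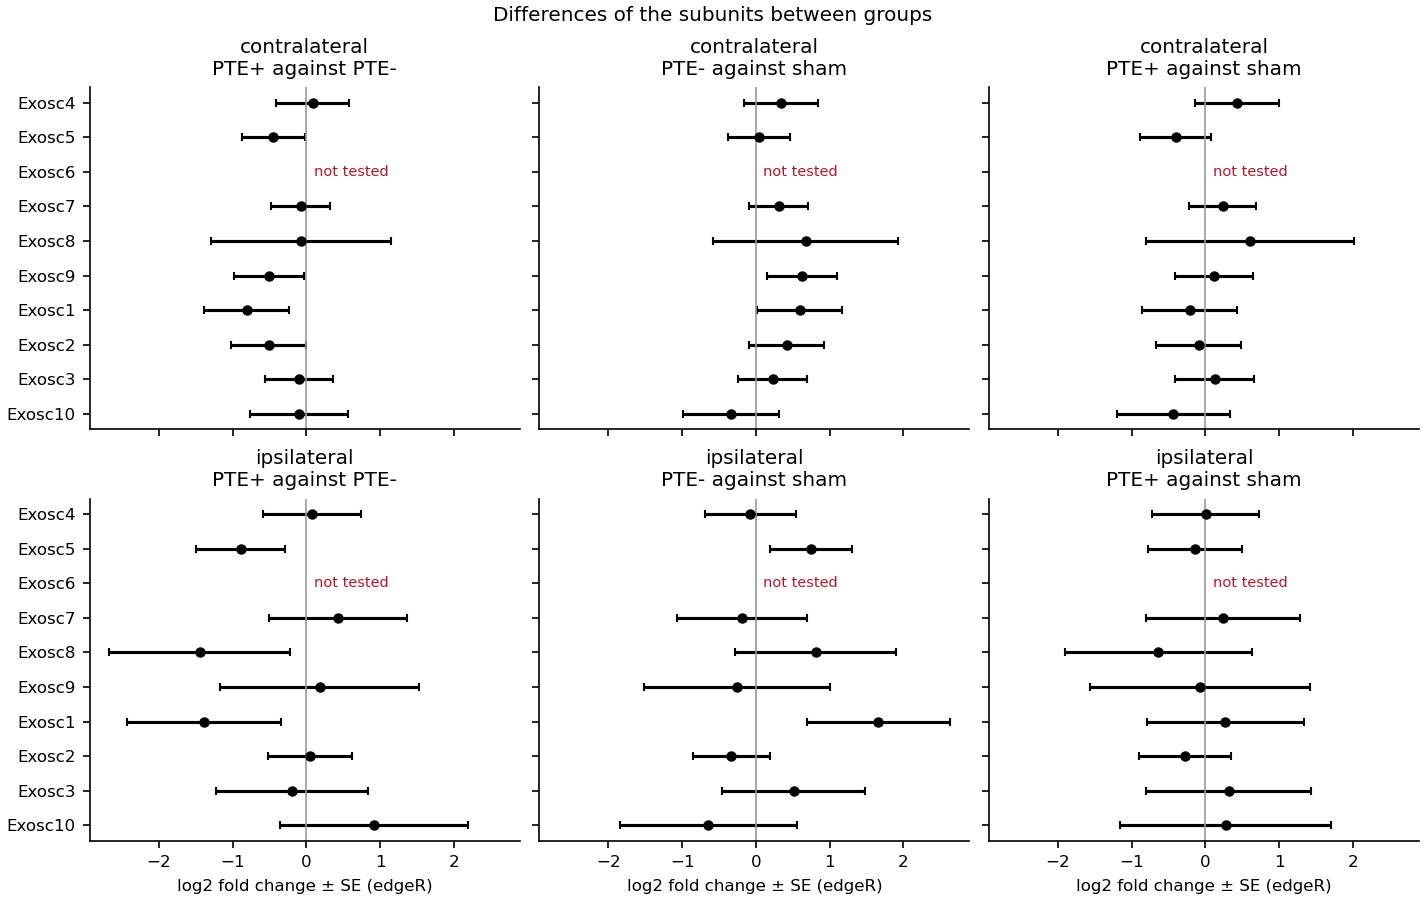
Log2 fold change of each subunit (points) with its standard error (bars) in edgeR, in the 3 group comparisons of each hemisphere. All intervals of 1 standard error lie within a few log2 units of 0 and the median standard error for PTE+ against PTE- is 1.03 on the ipsilateral and 0.49 on the contralateral side. Exosc6 is absent because the filter removed it.

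The comparisons with sham mice asked what injury did to the complex. Contralateral PTE- and sham mice had no subunit with an adjusted p under 0.05 in edgeR (0% of 14642 genes) or with an unadjusted p under 0.05 (smallest p = 0.201, against 1.54% of genes). Here 8 subunits were higher and 1 lower in PTE- mice, with a median log2 fold change of 0.35, beside 0.07 over all genes. Exosc9, a ring subunit known as an autoantigen in polymyositis and scleroderma, was at 39.0, 20.1, 21.8, 40.3 and 13.1 CPM in sham and at 11.3 to 73.9 CPM (median 40.9) in PTE- mice. Exosc6 was at 0 in all 5 sham libraries, so the PTE- mean was at least 141-fold higher against 3 counts and at least 12-fold without a9_20 (exact two-sided permutation p = 0.322, adjusted p = 1, again the smallest p these counts allow for a PTE- excess). DESeq2 called it with an adjusted p of 4.92e-07 (1.85e-06 without a9_20), and edgeR without the filter gave an adjusted p of 0.628. The joined counts gave -0.29 ± 0.21 (SE, p = 0.181, adjusted p = 1 in edgeR), the opposite direction. Exosc6 was the 1 subunit called by DESeq2, which called 0.493% of genes here, and limma called none.

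Contralateral PTE+ and sham mice had no subunit called in edgeR (0% of genes) and none with an unadjusted p under 0.05 (smallest p = 0.414, against 1.23%). Of the 9 subunits 5 were higher and 4 lower in PTE+ mice, with a median log2 fold change of 0.12 (0.03 over all genes). Exosc6 was at 0 in both groups and has no fold. The joined counts of Aars and Exosc6, here all from Aars, were 134 ± 47.1 CPM in PTE+ and 195 ± 35.1 CPM in sham mice (SD, n = 5 each). Their log2 fold change was -0.54 ± 0.25 (SE) in edgeR, with an unadjusted p of 0.0407 that did not pass the adjustment (adjusted p = 0.9999). Aars alone, with the same counts in these libraries, gave -0.54 ± 0.35 (SE, unadjusted p = 0.142, adjusted p = 0.9999 in edgeR). The 2 fits differ in the counts of the PTE- libraries only. The exact two-sided permutation p of Aars was 0.0556.

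Ipsilateral PTE- and sham mice had no subunit called in edgeR (0% of genes) and none with an unadjusted p under 0.05 (smallest p = 0.103, against 1.58%). The median log2 fold change of the subunits was -0.07, with 4 higher and 5 lower, beside 0.02 over all genes. The smallest p belonged to Exosc1, which was at 25.9, 33.1, 0.0732, 23.9 and 18.1 CPM in sham mice, and in PTE- mice at 243 CPM in a8_11, 140 CPM in a8_14 and 13.7 to 27.9 CPM in the other 6. Exosc4 had a log2 fold change of -0.07 in all libraries and of -0.89 ± 0.41 (SE) without a8_11 (unadjusted p = 0.0460, adjusted p = 0.9997 in edgeR), and limma voom gave -0.71 ± 0.25 (SE, unadjusted p = 0.0114, adjusted p = 0.873). Ipsilateral PTE+ and sham mice also had no subunit called in edgeR (0%) or with an unadjusted p under 0.05 (smallest p = 0.621, against 1.66%), with 5 higher, 4 lower and a median log2 fold change of 0.004, beside 0.002 over all genes. For Exosc6, the PTE- mean was at least 138-fold higher than in sham mice against 3 counts, from a8_11 alone (exact two-sided permutation p = 1, the only value possible with 1 library above 0 in the larger group). Without the filter edgeR gave that comparison an unadjusted p of 0.0210 (adjusted p = 0.772), and DESeq2, which replaces the outlying count, one of 0.970 (adjusted p = 1). The PTE+ mean was at least 38.8-fold higher than in sham mice against 3 counts, from 2 of 4 libraries, and at least 22.8-fold without a8_10 (exact two-sided permutation p = 0.167, adjusted p = 1, the smallest p these counts allow for a PTE+ excess). The unadjusted p was 0.0343 in edgeR without the filter and 0.0220 in DESeq2 (adjusted p = 1 in both). DESeq2 and limma called no subunit in either ipsilateral comparison with sham mice, nor in contralateral PTE+ against sham mice, where DESeq2 called 0.429% (PTE-), 0.56% (PTE+) and 0.504% of genes. The 3 comparisons of a hemisphere share libraries, so their values are given side by side and are not independent.

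Between the hemispheres of the same 17 mice no subunit passed the adjustment. In a joint fit of the 34 libraries all 10 subunits passed the filter and none had an adjusted p under 0.05, as for 0% of 15731 genes in each of the 3 groups. In sham mice no subunit had an unadjusted p under 0.05 (2.05% of genes), with a median ipsilateral against contralateral log2 fold change of 0.05. In PTE- mice none did (4.56% of genes), with a median of -0.28. In PTE+ mice Exosc6 alone did (2.93% of genes), with 0 counts in the 4 contralateral libraries and 311, 0, 0 and 220 counts in the ipsilateral libraries of a8_10, a9_17, a9_18 and a9_19. The ipsilateral mean was at least 33.7-fold higher against 3 counts, and at least 19.8-fold without a8_10. The unadjusted p was 0.0445 (adjusted p = 1 in edgeR), and it rose to 0.113 once each mouse entered as a replicate block. In PTE- mice the Exosc6 log2 fold change was 3.14 ± 2.51 (SE), and with the mouse as a block it was -2.02 ± 1.79 (adjusted p = 1 in edgeR for both). Its sign thus turned with the pairing, and it turned also without a8_11, when all remaining ipsilateral PTE- libraries were at 0 (adjusted p = 0.624). Exosc4 in PTE- mice moved likewise from -0.24 ± 0.47 to -0.99 ± 0.40 (SE) without a8_11 (unadjusted p = 0.0192, adjusted p = 0.733 in edgeR).

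The hemisphere difference itself was then compared between groups. PTE+ against PTE- mice gave no subunit with an adjusted p (0% of genes) or an unadjusted p under 0.05 (2.94% of genes), with a median difference of 0.37 on the log2 scale and a median standard error of 1.14. PTE- against sham mice gave none either (0% and 3.13% of genes), with a median difference of -0.18 and a median standard error of 1.06. For Exosc6 in PTE+ against PTE- mice edgeR gave an unadjusted p of 0.128 (adjusted p = 1), and no fold is given because the contralateral PTE+ libraries were all at 0. Exosc2 illustrates the spread within a group: the ipsilateral library was the lower one in 6 of 8 PTE- mice, 1 of 4 PTE+ mice and 2 of 5 sham mice.

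Whether Exosc6 moved with the rest of the complex was examined library by library. Of the 7 libraries with Exosc6 counts, 4 had most of the other 9 subunits above the median of their group and 3 had most of them below. In the contralateral library of a9_20, 7 of 9 were below, with a median deviation of -1.49 on the log2 scale. In the ipsilateral library of a8_11, 5 were above and 4 below, with a median deviation of 1.26, and this library held both the highest Exosc4 and no Exosc7 or Exosc10. In the contralateral libraries of a8_14, a9_15 and a8_11, 7, 6 and 6 of 9 were above, whereas in the ipsilateral PTE+ libraries of a8_10 and a9_19 3 of 9 were above. The other subunits thus had no common direction in the libraries in which Exosc6 was counted.

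The pairs of subunits varied together weakly and in both directions, as Spearman rho of log2(CPM + 1) after the group means were subtracted. Among the 36 pairs of the other 9 subunits the median rho was 0.065 over the 20 contralateral and 0.169 over the 17 ipsilateral libraries, and the range was -0.553 to 0.558 and -0.627 to 0.684. The median over all pairs of tested genes was 0.028 and 0.069. The highest pair was Exosc2 with Exosc5 on the contralateral side and Exosc1 with Exosc5 on the ipsilateral side. The lowest contralateral pair was Exosc5 with Exosc10 (-0.553) and the lowest ipsilateral pair Exosc1 with Exosc10 (-0.627). Pairs of Exosc6 with the others had a median rho of 0.033 and -0.094. Subtracting the group means gave libraries at 0 counts of Exosc6 different values by group. These rhos therefore reflect the group of the libraries at 0 as well as the few libraries above 0. The points share their libraries, and the number of genes detected had a rho with Exosc10 of -0.165 and 0.650 and with Exosc6 of -0.316 and -0.373 in the contralateral and ipsilateral hippocampus. The same limit holds for the rho of Exosc6 with the number of genes detected.

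**Figure D5:**
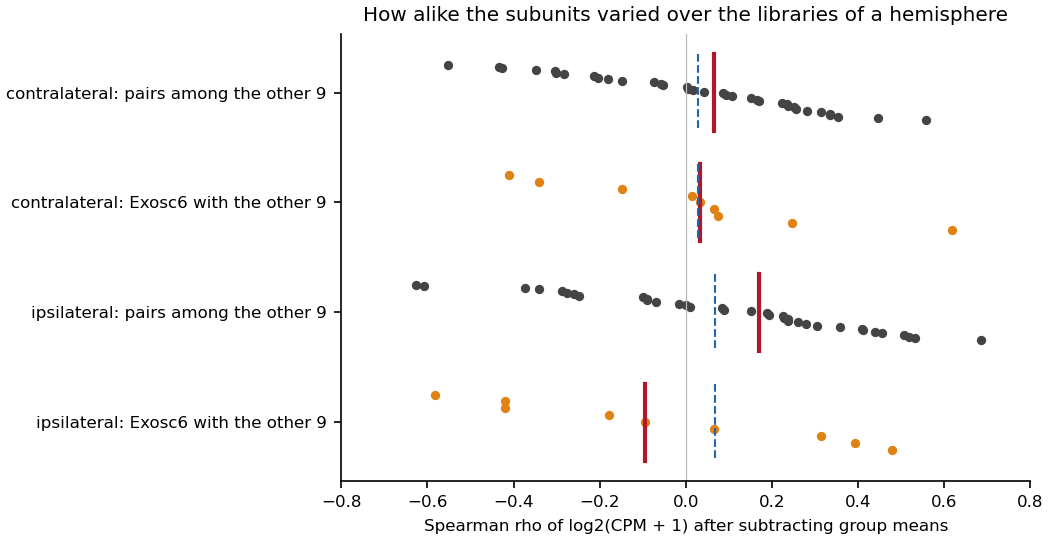
Spearman rho of each pair of subunits over the libraries of a hemisphere (points), for pairs among the other 9 subunits (black) and pairs with Exosc6 (orange). Red lines are the medians of the pairs (0.065, 0.033, 0.169 and -0.094 from top to bottom) and dashed blue lines the medians over all pairs of tested genes (0.028 and 0.069), and points spread on both sides of 0 in every row.

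The genes with the highest rho with Exosc6, with no group means subtracted, were not subunits. Exosc6 was tied at 0 in 16 of 20 contralateral and 14 of 17 ipsilateral libraries. Such ties limit the rho of any gene counted in nearly all libraries, as the other subunits were, and favour genes that share the zeros. The order therefore cannot show whether the subunits were unlike Exosc6. Over the 20 contralateral libraries the highest Spearman rho among 15953 genes belonged to Gm2244 (0.788), Gm20867 (0.748) and Gm28171 (0.745), each above 3 counts in 3 libraries that all had Exosc6. Over the 17 ipsilateral libraries it belonged to Vmn2r55 (0.774), 4930519G04Rik (0.745) and Gm26602 (0.708). Among subunits, Exosc3 came closest on the contralateral side (rho 0.642, in place 77) and Exosc1 on the ipsilateral side (rho 0.440, in place 589). Aars was in place 13705 of 15953 (rho -0.343) and 15646 of 15761 (rho -0.630). These values rest on 4 and 3 libraries above 0 and describe them only.

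Other RNA decay factors gave few values past an unadjusted p of 0.05 and none past the adjustment. In contralateral PTE+ against PTE- mice, of 15 exosome nucleases and cofactors 3 were higher and 12 lower (median log2 fold change -0.28), of 17 factors of 5′ decay and decapping 7 and 10 (-0.25), of 16 deadenylation factors 10 and 6 (0.09), and of 10 other 3′ exonucleases 4 and 6 (-0.11). All 10 factors of nonsense-mediated decay, which destroys mRNAs with premature stop codons, were lower (-0.36). Of the 68 genes in these lists 1 (1.47%) had an unadjusted p under 0.05, less than the 2.21% of all genes. It was Upf2, a core factor of nonsense-mediated decay. Upf2 was at 12.6, 2.14, 5.41, 6.18 and 3.77 CPM in PTE+ mice and at 1.99 to 117 CPM (median 22.1) in PTE- mice. Its log2 fold change was -2.32 ± 0.85 (SE, unadjusted p = 0.0123, adjusted p = 0.9998 in edgeR), and it was 1.94 ± 0.83 in PTE- against sham mice (unadjusted p = 0.0290, adjusted p = 0.9999). The highest Upf2 values were in PTE- mice a8_9 (117 CPM), a8_14 (46.9 CPM) and a9_15 (37.0 CPM), and 3 of the 10 PTE- libraries, at 1.99 to 9.38 CPM, were below the highest PTE+ library.

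On the ipsilateral side none of the 68 genes had an unadjusted p under 0.05 in PTE+ against PTE- mice in edgeR, against 1.75% of all genes. The medians were -0.16 for exosome cofactors, 0.07 for 5′ decay, 0.27 for deadenylation (13 of 16 higher), 0.23 for nonsense-mediated decay and 0.17 for other 3′ exonucleases. In contralateral PTE+ against sham mice 1 of the 68 did (1.47%, against 1.23% of all genes), Xrn2, a nuclear 5′-to-3′ exonuclease, which was at 42.3 ± 6.84 CPM in contralateral PTE+ and 81.8 ± 20.4 CPM in sham mice (SD, n = 5 each), with a log2 fold change of -0.95 ± 0.39 (SE, unadjusted p = 0.0223, adjusted p = 0.9999 in edgeR). Its lowest sham library, 62.6 CPM, was above its highest PTE+ library, 52.6 CPM. How many of all genes separate these groups in this way was not counted, so no result is read from it. On the ipsilateral side the direction was the opposite, with Xrn2 at 77.0 ± 24.4 CPM in PTE+ (SD, n = 4) and 64.5 ± 8.70 CPM in sham mice (n = 5).

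Markers of other cells differed in several of these comparisons. In contralateral PTE+ against PTE- mice all 8 neuron markers and all 8 endothelial markers were higher in PTE+ mice in the fit, with median log2 fold changes of 1.17 and 0.90, and 2 and 1 of them had an unadjusted p under 0.05, against 2.21% of all genes (none passed the adjustment in edgeR). Those under 0.05 were the neuron markers Map2 (log2 fold change 0.68 ± 0.29, SE, unadjusted p = 0.0277 in edgeR) and Snap25 (1.36 ± 0.62, p = 0.0401). The endothelial one was Ly6c1 (1.04 ± 0.48, p = 0.0415), and the adjusted p of each was 0.9998. The summed TPM of all 8 markers ranged from 119 to 1190 in PTE+ and 109 to 259 in PTE- mice for neurons, and from 803 to 5610 and 398 to 2020 for endothelial cells. All 10 astrocyte markers were lower (median -0.19), with none past an unadjusted p of 0.05. In contralateral PTE+ against sham mice all 8 endothelial markers were higher in the fit (median 1.04), 1 of them with an unadjusted p under 0.05 (1.23% of all genes). Against ipsilateral sham mice, 8 of 10 astrocyte markers were lower in PTE- (median -0.36) and 9 of 10 in PTE+ mice (-0.31), 2 of them in each with an unadjusted p under 0.05 (1.58% and 1.66% of all genes). The 7 oligodendrocyte markers tested there had medians of -1.09 in PTE- and -1.01 in PTE+ mice, with an unadjusted p under 0.05 for 0 and 1 of them. None of the markers in these comparisons with sham mice passed the adjustment in edgeR. In ipsilateral PTE+ against sham mice 7 of 8 microglia markers were lower (median -0.70) and 6 of 8 neuron markers higher (0.83). In ipsilateral PTE+ against PTE- mice 6 of 8 microglia markers were lower (-0.57) and 7 of 8 neuron markers higher (0.45). None of these microglia and neuron markers had an unadjusted p under 0.05. The part of these differences in the values of the subunits was not tested.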

How the data were processed

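The authors trimmed reads with Trim Galore 0.6.4 and estimated gene counts with RSEM 1.2.28 on Bowtie2 2.4.1 and mm10, and their own tests used DESeq2 1.36.0, per the labels and methods. Libraries were made with SMART-Seq V4, and the annotation release is not given in the sources used here. The deposited expected counts are whole numbers without normalization. TPM values of that RSEM run, also deposited by the authors, were used here for levels between genes, marker sums and an alternative test. The tables hold no comparisons of the authors.

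Groups came from the sample labels. Coordinates were taken from GENCODE M21 on GRCm38, in which 21933 of 21975 identifiers were found. Symbols came from a list of gene names that held 21856 of the identifiers. The test was edgeR 4.0.16 in R 4.3.3 (TMM, filterByExpr, quasi-likelihood F test, Benjamini-Hochberg over all genes tested) in a fit of the 3 groups of a hemisphere, and in a joint fit of 17 mice for the hemispheres. Single genes were also compared by exact two-sided permutation of log2(CPM + 1). Log2 fold changes are on the scale of edgeR or DESeq2. Standard errors of edgeR are the log2 fold change divided by the square root of F. A floor of 3 counts per library gave lower bounds on ratios of mean CPM.

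All 10 members are described. A fold change and p are given for Exosc6 and for members with an unadjusted p under 0.05. From the other lists they are given for genes under 0.05 between PTE+ and PTE- mice. The 3 genes most like Exosc6 in each hemisphere are given with their rho only. Fold changes of Exosc4, the tests of Aars alone and joined with Exosc6, and the p of Exosc1 fall outside this rule. So do the mice counted for Exosc2, and Xrn2. All of these were picked out after their values were seen. The members and lists were chosen with earlier results of these data known. The alternatives were RLE size factors, no filter, a fit of 2 groups only, the name prefix of the mice as a covariate, DESeq2 1.42.0, limma 3.58.1 on voom weights or log2(TPM + 1), a pseudocount of 0.1, the mouse as a block, and leaving out each library. Joining Exosc6 with Aars, and DESeq2 without replacement or without the library richest in Exosc6, were chosen after seeing the data. Exosc6 was singled out by the study on these samples. P-values within a hemisphere measure the spread between mice. In the joint fit without the block, both libraries of a mouse entered as independent samples, so its p-values ignore the pairing.

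The mouse pairs the hemispheres, since both libraries come from the same animal: deviations from the group means correlated with a median of 0.078 within a mouse (-0.028 to 0.323, 17 pairs) and -0.015 between mice. No 2 libraries of a group were identical, and the scripts were tested on simulated counts. The simulation had large changes and a smaller spread than these data, so it does not show what the test finds at the spread seen here. Python 3.11.15 with matplotlib 3.10.9 drew the figures.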

Additional observations from a re-analysis of the deposited data

Results flagged for a closer look

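In groups of 4 to 10 libraries, 9 of 57 sets of CPM values had 1 library separated from the rest of its group by more than Dixon's 95% critical value, always the highest one, and chance alone flags about 1 in 20 groups when values are normally distributed. The CPM values were not log-transformed and the sets share libraries, so that rate need not hold here. Exosc6 was at 93.4 CPM in contralateral PTE- mouse a9_20 and at 69.6 CPM in ipsilateral PTE- mouse a8_11. The ipsilateral library of a8_11 was also far above the other PTE- mice for Exosc4 (311 CPM), Exosc5 (143 CPM) and Exosc8 (148 CPM). Exosc7 was at 76.7 CPM in the ipsilateral PTE- library of a8_14. Exosc1 was at 93.2 CPM in the contralateral PTE- library of a8_9 and at 35 CPM in the ipsilateral PTE+ library of a8_10, and Exosc2 was at 107 CPM in the contralateral PTE- library of a9_15.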

How the results depend on the processing

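The number of subunits called, 0 in all 11 comparisons, was unchanged in 156 of 160 recomputed values. In contralateral PTE+ against PTE- and PTE- against sham mice it became 1 (Exosc6) with DESeq2 and 1 with DESeq2 without a9_20. When single libraries were left out in edgeR, it ranged from 0 to 0 in each comparison. The number with an unadjusted p under 0.05 moved in 27 of 160 values and reached at most 2. The median log2 fold change of the subunits changed sign in 28 of 160 values, 10 of 22 in ipsilateral PTE+ against PTE- mice (-0.41 without a9_18, to 0.17) and 8 of 23 in ipsilateral PTE- against sham mice (-0.32 to 0.41), so no direction is read from it. For the Exosc6 difference between hemispheres of PTE+ mice, the p of 0.0445 became 0.113 with the mouse as a replicate block (fitted log2 fold change 8.36, from 9.80, neither a bound), and ranged from 0.0697 to 0.0985 without 1 PTE+ mouse (9.04 to 10.22). The replicate block changed no other call of a subunit. With a pseudocount of 0.1, the ipsilateral Exosc8 difference of PTE+ against sham mice turned from -0.31 to 0.22 (exact permutation p = 0.937, adjusted p = 1), and the other 59 permutation results kept direction and side. The biological coefficient of variation (1.32 contralateral, 1.40 ipsilateral) limits what small groups can show, and depth does not separate Exosc6 from Aars, whose transcripts share its sequence.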
